A study of Mus musculus with 6 samples.

Results

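The genes of the natriuretic peptides, their activating protease and their receptors were followed in P6 hearts, 6 days after birth, of which 3 were from hSRY-ON and 3 from hSRY-OFF males. They were the 7 genes Nppa, Nppb, Nppc, Corin, Npr1, Npr2 and Npr3, chosen by symbol among the 18138 gene symbols of a BeadChip expression array, and each had 1 probe among the 25697 of the array. All mice were FVB by the labels, given as FVB/N in the methods. In the hSRY-ON mice a single inserted copy of a loxP-flanked cassette had been recombined in the early embryo by Cre protein carried over from the oocyte of a Ddx4-Cre mother, which placed FLAG-tagged human SRY and EGFP under the ubiquitous CAG promoter, and the animals chosen for the arrays did not carry Ddx4-Cre themselves. The methods define hSRY-OFF as the same cassette left unrecombined, in which CAG drives DsRed2, whereas the results describe the controls as littermates with Ddx4-Cre only or with neither transgene, so the genotype of the control hearts is uncertain. The transgene came from 1 responder line. No probe carried the symbol of human SRY, and the only probe of mouse Sry was above background on 0 of 6 arrays.

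Natriuretic peptides are hormones made as precursors. Nppa encodes atrial natriuretic peptide and Nppb brain natriuretic peptide, which cardiac myocytes release under stretch, and Nppc encodes C-type natriuretic peptide, made largely outside the myocytes. Corin, a protease in the myocyte membrane, cleaves the precursor of atrial natriuretic peptide. Npr1 encodes the receptor of the atrial and brain peptides and Npr2 that of the C-type peptide, and both receptors make cyclic GMP inside the cell. Npr3 encodes a receptor without a cyclase domain that takes the peptides up and clears them. In the ventricles Nppa is active before birth and is turned down afterwards, while the atria keep it, so that the gene is widely read as a marker of the fetal and the stressed heart.

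In the hSRY-ON hearts the genes of the receptors Npr2 and Npr3 rose by 2.02-fold and 1.84-fold, while Nppa, Nppb, Corin and Npr1 were not differentially expressed and Nppc was above background in no heart. Of the 7 genes 6 could be tested, and 2 of these were differentially expressed, both higher. Among all 12970 tested probes 27.5% were differentially expressed, 13.8% higher and 13.7% lower in hSRY-ON. Fold changes compare hSRY-ON with hSRY-OFF, positive where hSRY-ON was higher, on background-corrected, quantile-normalized log2 intensities, tested with limma (two-sided, Benjamini-Hochberg adjustment over all tested probes, called at an adjusted p under 0.05). Probes entered the test if 3 or more of the 6 arrays gave a detection p-value below 0.05. The arrays were of similar quality, with 47.2% to 51.3% of the probes detected, and the dimmest, hSRY-OFF replicate 3, averaged 631 intensity units where the others averaged 723 to 939. With 3 arrays in a group their number limits the precision, and no two-sided exact permutation test of a single gene could go below p = 0.1. hSRY-ON replicate 1 stood apart in Scgb1a1, a marker of airway cells, with an intensity of 12500 against 137 to 268 in the other hearts. Of the other lung markers, Sftpb was detected in this heart by both probes, at low intensities of 177 and 186, and Sftpc and Sftpa1 were not. The brighter Sftpb probe was also detected in hSRY-OFF replicate 3 and hSRY-ON replicates 2 and 3. The part of hSRY-ON replicate 1 in the results was not tested. Without this heart Npr2 was still called, at 0.92 (adjusted p = 0.0494), and Npr3 was not, at 0.76. The labels do not say whether the replicates came from separate litters.

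**Figure D1:**
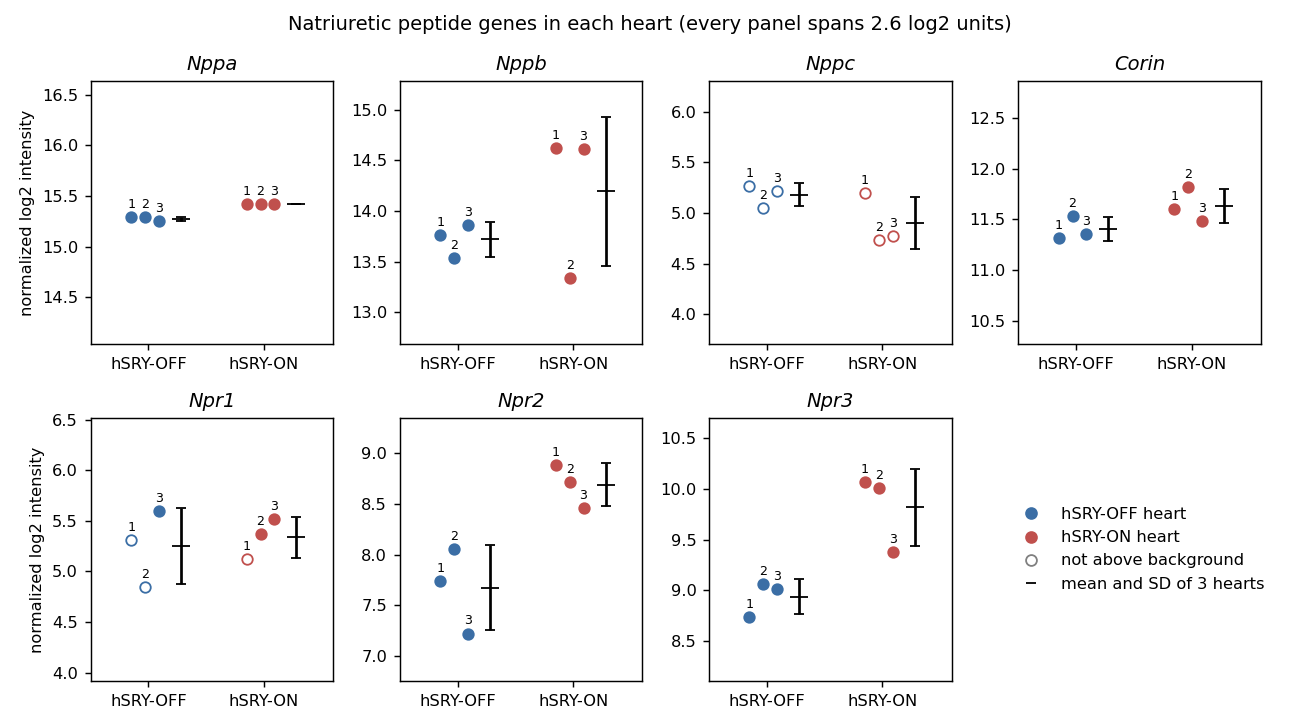
Normalized log2 intensity (vertical axis) of the 7 genes in each hSRY-OFF (blue) and hSRY-ON (red) heart, numbered by replicate, with the mean and SD of 3 hearts; open points were not above background. Npr2 and Npr3 lay higher in all 3 hSRY-ON hearts, and hSRY-ON replicate 2 had the lowest Nppb of the 6.

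The sequences upstream of Nppa and Nppb, the ligand genes of the myocyte, and of Npr2 and Npr3, the differentially expressed receptor genes, are shown because the protein that was switched on is a DNA-binding factor. Each run is the 250 bases before the transcript start in RefSeq (GRCm38.p6), written 5′ to 3′ on the strand of the gene. All 7 genes were matched to the RefSeq table. Capitals mark matches, on either strand, to AACAAT (the core bound by SRY), GATAA (GATA factors), TNAAGTG (NK-2 factors such as Nkx2-5) and TATAAA (the TATA box). The windows are chr4:148000472-148000721 and chr4:147985650-147985899 on the plus strand, chr4:43631685-43631934 on the plus strand and chr15:11907372-11907621 on the minus strand.
Nppa: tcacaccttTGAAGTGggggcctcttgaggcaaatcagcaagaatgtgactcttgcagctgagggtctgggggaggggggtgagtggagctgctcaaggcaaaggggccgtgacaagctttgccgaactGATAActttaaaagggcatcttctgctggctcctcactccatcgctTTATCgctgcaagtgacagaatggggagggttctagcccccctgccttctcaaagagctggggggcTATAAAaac
Nppb: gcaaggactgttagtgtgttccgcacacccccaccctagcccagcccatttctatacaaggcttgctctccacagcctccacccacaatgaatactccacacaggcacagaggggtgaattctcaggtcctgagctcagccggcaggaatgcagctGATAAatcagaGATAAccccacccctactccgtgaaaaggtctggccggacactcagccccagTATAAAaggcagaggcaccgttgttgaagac
Npr2: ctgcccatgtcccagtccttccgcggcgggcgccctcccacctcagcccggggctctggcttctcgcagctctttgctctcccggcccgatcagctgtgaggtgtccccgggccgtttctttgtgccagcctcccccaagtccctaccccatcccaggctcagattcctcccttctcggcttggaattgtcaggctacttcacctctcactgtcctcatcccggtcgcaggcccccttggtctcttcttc
Npr3: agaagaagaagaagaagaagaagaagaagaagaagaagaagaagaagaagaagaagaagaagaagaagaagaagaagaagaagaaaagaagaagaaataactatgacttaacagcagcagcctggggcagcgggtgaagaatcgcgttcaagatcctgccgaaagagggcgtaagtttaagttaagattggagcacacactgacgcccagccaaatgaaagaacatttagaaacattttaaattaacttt
The window of Nppa held a GATAA match on each strand, beginning 121 and 75 bases before the start, and 1 TNAAGTG match at 241 bases. That of Nppb held 2 GATAA matches on its own strand, at 94 and 83 bases, and no TNAAGTG match. Both had a TATAAA match, 9 bases before the start in Nppa and 31 in Nppb. None of these letters was found upstream of Npr2 or Npr3, and AACAAT was in none of the 7 windows. Over 32851 such windows of the table, 9.42% held AACAAT, 22.6% GATAA, 10.1% TNAAGTG and 12.4% TATAAA. No 2 of the matches overlapped, and a match is a description of the letters only.

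Nppa was read at the top of the scale in every heart. Its deposited intensity, before any correction, was 42899, 44321 and 35921 in hSRY-OFF replicates 1, 2 and 3, which is 89.2%, 92.4% and 83.5% of the highest intensity of each array. In hSRY-ON replicates 1, 2 and 3 it was 41110, 43960 and 42317, or 92.2%, 93.7% and 92.5% of the highest. The deposited intensities of the groups overlapped, and the ratio of their means was 1.03. Nppa was the 7th, 7th and 8th brightest of all probes in the hSRY-OFF hearts and the 2nd brightest in each hSRY-ON heart. Quantile normalization gives a probe the value of its rank, so the normalized log2 intensity was 15.29, 15.29 and 15.25 in hSRY-OFF and 15.42 in each hSRY-ON heart. The spread of 0 within hSRY-ON comes from the shared rank. On this scale the groups did not overlap, as for Npr2 and Npr3, so that 3 of the 6 tested genes were higher in every hSRY-ON heart. Among all tested probes the groups did not overlap for 45.2%, of which the share higher in hSRY-ON was 23.6% and the share lower 21.6% of all tested. The log2 fold change was 0.14 (standard error 0.11, 95% interval -0.10 to 0.39, adjusted p = 0.349), and under the 9 other settings that kept all hearts it lay between 0.05 and 0.27. With so little room above these intensities, a higher transcript level could not have been read in full, and the interval does not cover that limit.

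**Figure D2:**
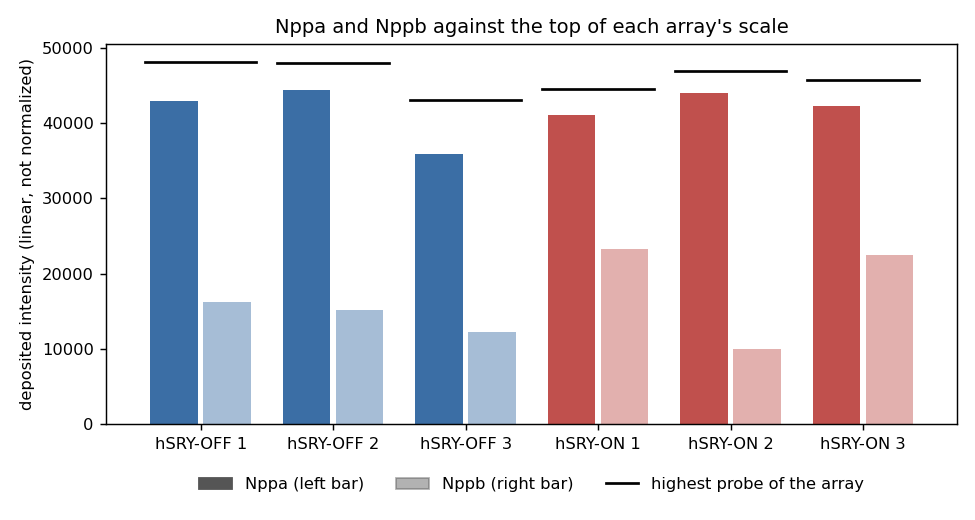
Deposited linear intensity (vertical axis, not normalized) of Nppa (dark bars) and Nppb (pale bars) on each array, with a line at the highest intensity of that array. Nppa stood at 83.5% to 93.7% of the line on every array, Nppb at 21.4% to 52.3%.

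Nppb differed more among the hSRY-ON hearts than between the groups. Its deposited intensity was 16227, 15159 and 12278 in replicates 1, 2 and 3 of hSRY-OFF. The same replicates of hSRY-ON gave 23298, 10025 and 22434. The normalized log2 intensity was 13.76, 13.53 and 13.86 in the hSRY-OFF hearts and 14.63, 13.34 and 14.61 in the hSRY-ON hearts. Replicates 1 and 3 of hSRY-ON lay above every hSRY-OFF heart and replicate 2 below every one, and the SD was 0.74 in hSRY-ON against 0.17 in hSRY-OFF (n = 3 each). The log2 fold change of 0.47 (standard error 0.33, 95% interval -0.30 to 1.25) was not differentially expressed (adjusted p = 0.329). Without hSRY-ON replicate 2 it was 0.91 with an adjusted p of 0.00884, and without any other heart it was between 0.25 and 0.54 and was not called. The probe reached 50% of the highest intensity of its array in 1 heart, hSRY-ON replicate 1.

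Nppc, the gene of the C-type peptide, gave no signal above background. Its intensity ran from 153 to 188 (hSRY-OFF) and from 148 to 165 (hSRY-ON), with detection p-values of 0.0714 to 0.123 and 0.0789 to 0.368, so it was not well above background in any heart and was not tested. Corin was above background in all hearts. Its normalized log2 intensity was 11.32, 11.54 and 11.36 in hSRY-OFF and 11.60, 11.82 and 11.49 in hSRY-ON replicates 1, 2 and 3, and the groups overlapped. The log2 fold change was 0.23 (standard error 0.14, 95% interval -0.09 to 0.55, adjusted p = 0.246).

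Npr1, the receptor gene of the atrial and brain peptides, was close to the background. Its probe was detected in hSRY-OFF replicate 3 and in hSRY-ON replicates 2 and 3 only, with intensities of 162 to 187 (hSRY-OFF) and 162 to 174 (hSRY-ON). The fitted log2 fold change was 0.09 (standard error 0.21, 95% interval -0.40 to 0.57, adjusted p = 0.791), and it changed sign, to -0.11, without hSRY-OFF replicate 2. At this signal a difference in Npr1 was not detectable.

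Npr2, the receptor gene of the C-type peptide, rose in the hSRY-ON hearts. Its deposited intensity was 397, 487 and 233 in hSRY-OFF and 568, 553 and 460 in the hSRY-ON hearts (replicates 1, 2 and 3). The normalized log2 intensity was 7.74, 8.05 and 7.22 in the hSRY-OFF hearts and 8.88, 8.72 and 8.46 in the hSRY-ON hearts. After normalization every hSRY-ON heart was above every hSRY-OFF heart, and hSRY-OFF replicate 3 was the lowest of all. In the deposited intensities hSRY-ON replicate 3 (460) was below hSRY-OFF replicate 2 (487), and the ratio of the group means was 1.42. The log2 fold change was 1.02 (standard error 0.22, 95% interval 0.50 to 1.54, adjusted p = 0.0135; exact permutation p = 0.1, the smallest possible). It stayed differentially expressed under all 15 alternatives, between 0.68 and 1.21, with adjusted p-values of 0.00336 to 0.0494. Without hSRY-OFF replicate 3 it was 0.79.

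Npr3, the clearance receptor gene, rose as well. Its deposited intensity was 642, 819 and 502 in hSRY-OFF and 1126, 1164 and 752 in the hSRY-ON hearts (replicates 1, 2 and 3). The normalized log2 intensity was 8.74, 9.06 and 9.01 in the hSRY-OFF hearts and 10.07, 10.01 and 9.38 in the hSRY-ON hearts. After normalization all hSRY-ON hearts were above all hSRY-OFF hearts, with hSRY-ON replicate 3 the nearest to them. Before it, hSRY-ON replicate 3 (752) was below hSRY-OFF replicate 2 (819). The log2 fold change was 0.88 (standard error 0.20, 95% interval 0.40 to 1.36, adjusted p = 0.017; exact permutation p = 0.1). Its size was kept between 0.73 and 1.10 under the 15 alternatives, but the call was lost under 4 of them, which were no normalization between arrays (adjusted p = 0.0625) and leaving out hSRY-OFF replicate 1, hSRY-ON replicate 1 or hSRY-ON replicate 2 (adjusted p = 0.0629, 0.0576 and 0.0546).

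**Figure D3:**
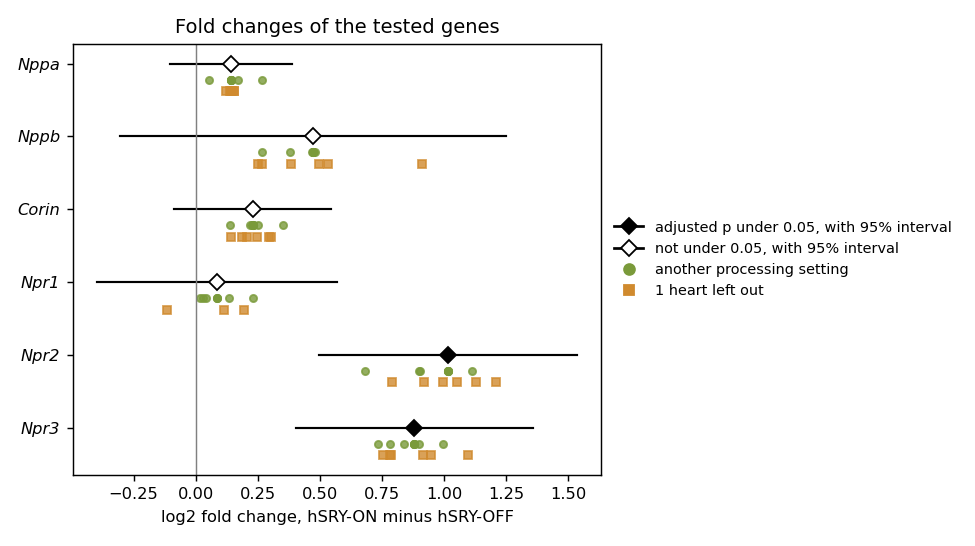
Log2 fold change of the 6 tested genes, hSRY-ON minus hSRY-OFF (horizontal axis), with the 95% interval (black line), the values under other processing settings (green) and those with 1 heart left out (orange). Npr2 and Npr3 kept positive values throughout, and the 1 separate orange point of Nppb, at 0.91, leaves out hSRY-ON replicate 2.

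In whole hearts, fewer cells of a type and less RNA per cell cannot be told apart, so the markers of the cells that use these genes are given beside them. Among all tested probes 27.5% were called and the groups did not overlap for 45.2%, so counts over these short lists are descriptions only. Npr3 is typical of the endocardium and of fat. Of 6 tested genes of endocardium and endothelium 3 were higher in hSRY-ON (Vwf by 1.32, Emcn by 0.53 and Nfatc1 by 0.42 on the log2 scale), Cdh5 was lower, at -0.72, and Pecam1 and Tie1 were not called. The summed linear normalized intensity of that list ran from 10333.5 to 11757 (hSRY-OFF) and from 12318 to 15810 (hSRY-ON), and Kdr, a defining gene, was not above background on enough arrays to be tested. Of 4 tested fat markers Ucp1 and Adipoq were higher, Adipoq by 1.48, and Cidea, at -1.05, and Cfd, at 1.26, were not called, with every hSRY-ON heart below every hSRY-OFF heart for Cidea. Ucp1 had log2 values of 4.64, 5.03 and 8.88 in hSRY-OFF and 10.81, 8.80 and 9.94 in the hSRY-ON hearts, in replicate order, and the summed list overlapped, at 1867 to 2639 against 1101 to 3656. Fabp4 and Plin were not tested. Npr2 is known in fibroblasts and vascular smooth muscle. Of 7 tested fibroblast genes 1 was called by its brightest probe, Tcf21, at 0.76. Another probe of Dcn was called lower, at -0.90 (adjusted p = 0.0108), where the brightest gave -0.30 without a call, and Lum and Col3a1, at -0.43 and -0.60, were not called. The summed list overlapped, at 31550 to 33822 (hSRY-OFF) and 28844 to 32146 (hSRY-ON). Of 3 tested smooth muscle genes Acta2 and Tagln were higher, while Myh11, at -0.42, was not called and lay lower in every hSRY-ON heart. The summed list, 25412 to 30724 against 38592 to 42586, was mostly Acta2, whose brightest probe was near the top of the scale on all 6 arrays. The part of these cell types in the changes of Npr2 and Npr3 was not tested.

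Nppa and Corin are genes of cardiac myocytes, and Nppa marks the atria after birth. Of 7 tested atrial genes 2 were higher (Bmp10 by 1.43 and Dkk3 by 0.65) and 2 lower (Myl4 at -0.99 and Kcnj3 at -0.75). The summed list overlapped, at 56139 to 58251 (hSRY-OFF) and 32316 to 56816 (hSRY-ON). Myl4, the brightest of the list, was near the top of the scale in all hSRY-OFF hearts, at 66.4% to 72.9% of the highest intensity. In hSRY-ON replicate 3 Myl4 was near the top as well, at 51.2%. The ventricular list had 0 genes higher and 3 of 4 lower, led by Irx4 at -2.01, and sums of 46857 to 51020 against 45833 to 46372. General myocyte genes, of which 7 were tested, had 3 lower and 0 higher, with sums of 150487 to 162352 (hSRY-OFF) and 131449 to 143071 (hSRY-ON). Over all tested probes 13.8% were called higher and 13.7% lower. The ventricular and general myocyte sums rest largely on Myl2, Tnnc1 and Myl3, which stood at 76.9% to 100% of the highest intensity on every array and could not have shown a rise in full. The part of these cell types in the values of Nppa and Nppb was not tested. Counted by the brightest probe, among markers of other tissues called genes numbered 1 of 3 for epicardium, 1 of 1 for liver and 2 of 3 for myeloid cells, all higher, 1 of 2 for thymus and lymphocytes, 1 of 4 for erythroid cells and 1 of 1 for neurons, all lower, and 0 of 1 for lung, where Scgb1a1 was detected in too few hearts to be tested.

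Beyond the peptides and receptors, 66 genes were listed that process the peptides, carry their signal, control their genes or are read with them as fetal and stress genes, and 46 of the 62 on the array could be tested. By the brightest probe of each gene, 13 were higher and 12 lower in hSRY-ON. Counted over all 65 tested probes, 47.7% were differentially expressed, 24.6% higher and 23.1% lower, against the 27.5% of all tested probes. The lists were chosen with earlier results of these data known, so the 2 shares are given as a description. Without the fetal and stress genes it was 41.5% of 53 probes, with 10 of 37 tested genes higher and 8 lower. The number of called probes fell from 31 to between 15 and 27 when 1 heart was left out, with 15, 17 and 20 without hSRY-ON replicate 1, hSRY-OFF replicate 1 and hSRY-OFF replicate 2, and to 16 without normalization between arrays. Over all probes the called number fell from 3567 to 2255, 2206 and 2408 without these hearts, and to 1897 without that normalization.

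Among the enzymes that process or degrade the peptides 3 of 6 tested genes were higher and 2 lower. Over all tested probes 13.8% were called higher and 13.7% lower, and the count over this short list is a description only. Furin, a convertase that cleaves the precursor of brain natriuretic peptide, had log2 values of 12.26, 12.31 and 12.27 in hSRY-OFF and 13.22, 13.15 and 12.82 in hSRY-ON replicates 1, 2 and 3 (log2 fold change 0.78, standard error 0.14, adjusted p = 0.00584), and its other tested probe gave 0.79. Mme, which encodes neprilysin, the main enzyme that degrades natriuretic peptides, was 6.06, 5.57 and 6.68 in hSRY-OFF and 7.46, 7.11 and 7.21 in hSRY-ON (1.15, standard error 0.27, adjusted p = 0.0165). Furin and Mme were thus higher in each hSRY-ON heart than in any hSRY-OFF heart, as were 23.6% of all tested probes. Ace, the angiotensin-converting enzyme, increased by 2.27 (standard error 0.34), and by its other probe, which was not well above background in any hSRY-OFF heart, it was at least 4.69-fold higher (adjusted p = 0.00129). The brighter Ace probe was dim in hSRY-OFF too, at 171 to 194, and not above background in hSRY-OFF replicate 2. The 2 lower genes were those of the peptidases Ide, at -0.48, and Dpp4, at -0.60. Ostn, whose product binds the clearance receptor, was not tested.

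Cyclic GMP, the messenger of Npr1 and Npr2, is also made by soluble guanylyl cyclase, and both of its tested subunit genes rose. Gucy1b3 was 8.04, 8.12 and 7.22 in hSRY-OFF and 8.98, 8.69 and 8.71 in hSRY-ON on the log2 scale, 1.995-fold higher (standard error of the log2 value 0.24, adjusted p = 0.0203), and Gucy1a3 rose by 0.46 by its brightest probe (adjusted p = 0.0377), with 0.38 and 0.47 by the other probes, which were not called. Of the effectors, Mrvi1, a substrate of cyclic GMP-dependent protein kinase, changed by -1.13 (adjusted p = 0.000695), and Pln, the phospholamban gene whose product that kinase can also phosphorylate, by -1.47. Rgs4 changed by -0.61. Rgs2, a brake on Gq signals, was not well above background in any hSRY-ON heart and was at least 1.37-fold lower there (adjusted p = 0.0105). The kinase genes Prkg1 and Prkg2 were not tested. Of 5 tested phosphodiesterase genes Pde1a was higher by its brightest probe, at 0.71, with 0.29 and 0.55 by its other probes, which were not called. The other genes, Pde1b, Pde2a, Pde10a and the subunit gene Pde6d, lay between -0.10 and 0.27 without a call. The shares over all tested probes were 13.8% called higher and 13.7% lower. Pde5a, Pde9a, Pde3a, Pde3b and Pde1c were not tested.

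Of 18 tested genes for factors that act on the Nppa and Nppb promoters, 4 were higher and 2 lower in hSRY-ON. By probe, 5 of 26 were higher and 3 lower, near the 13.8% and 13.7% of all tested probes. Nkx2-5, a homeobox factor of the myocyte, was 10.61, 10.73 and 10.55 in hSRY-OFF and 11.25, 11.38 and 11.29 in hSRY-ON on the log2 scale (0.68, standard error 0.12, adjusted p = 0.00493). Tbx5, a T-box activator of Nppa, had a mean of 6.38 (SD 0.63) in hSRY-OFF, where replicate 3 was the highest at 7.11, and 7.39, 7.44 and 7.58 in hSRY-ON (1.09, standard error 0.29, adjusted p = 0.0282). Each of these was higher in all hSRY-ON hearts, as were 23.6% of all tested probes. Gata6 and Nfatc1 rose by 0.45 and 0.42. Hey2, a repressor that also marks the ventricle, and Hand2 were lower, at -0.79 and -0.67, while Gata4, at -0.37, and Srf, at -0.15, were not called.

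The fetal and stress genes usually read together with Nppa and Nppb were divided. Myh7, the fetal ventricular myosin of the mouse, was 10.46, 10.02 and 10.08 in hSRY-OFF and 12.86, 13.39 and 13.14 in hSRY-ON on the log2 scale (2.94, standard error 0.18, adjusted p = 8.25e-05). Acta1, the skeletal actin gene, was 12.14, 11.61 and 11.45 against 8.96, 7.93 and 8.56, a change of -3.25 in the opposite direction (adjusted p = 0.000389). Ankrd1, which responds to stretch, rose by 0.44 on the log2 scale, and Ctgf, a matricellular protein gene, by 2.82-fold. Both probes came near the top of the scale, Ctgf at 70.4% of the highest intensity in hSRY-ON replicate 1 and Ankrd1 at 56.2% and 54.7% in hSRY-ON replicates 1 and 3, and a larger rise could not have been read in full there. Ankrd1 was near the top in hSRY-OFF replicate 2 as well, at 51.8%. By the other probe of Ankrd1, with values of 12.40, 12.58 and 12.17 in hSRY-OFF and 13.48, 12.47 and 13.12 in hSRY-ON, replicate 2 was again the lowest hSRY-ON heart, and the probe was not called. Rcan1, a target of calcineurin, was at -0.91, and of the genes of the mature heart Tnni3 was at -1.13 and Myh6 at -0.51. The Myh6 probe was near the top in all hSRY-OFF hearts, at 63.0% to 82.9% of the highest intensity, and the other Myh6 probe, well below it, gave -1.97 (adjusted p = 0.00154). For Atp2a2 the brightest probe, near the top on all 6 arrays, was not called, and the other was called at -0.53. Over the list 3 of 9 tested genes were higher and 4 lower, where 27.5% of all tested probes were called. The lower genes were Acta1, Rcan1 and the genes of the mature heart Tnni3 and Myh6, so the count mixes fetal and mature genes.

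**Figure D4:**
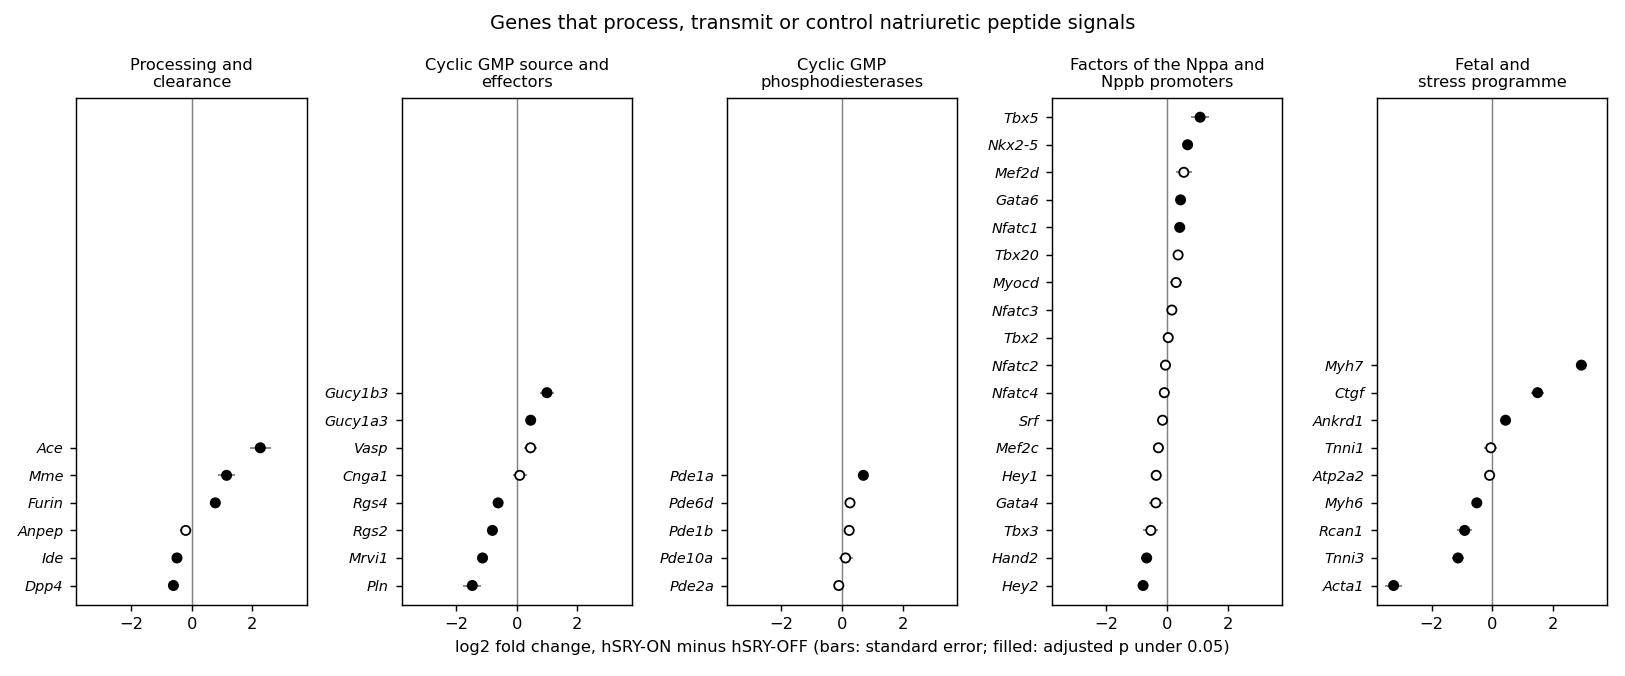
Log2 fold change, hSRY-ON minus hSRY-OFF (horizontal axis), with its standard error, of the brightest tested probe of each of 46 genes in 5 lists; filled points passed an adjusted p under 0.05. Called genes lay on both sides of 0, with Myh7 and Acta1 the farthest on either side; Rgs2, not above background in hSRY-ON, has a fitted value only.

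Nppb and Nppa lie side by side on the chromosome, and the protein-coding genes near them in RefSeq (GRCm38.p6) include Mfn2, Plod1 and 2510039O18Rik before Nppb and Clcn6 and Agtrap after Nppa. Mfn2, which encodes a mitochondrial fusion protein, changed by -0.79 (standard error 0.11, adjusted p = 0.00192), and Agtrap, which encodes a protein that binds the angiotensin receptor, by -0.52 (adjusted p = 0.0425). Plod1 and 2510039O18Rik were not called, at -0.15 and -0.02, and Clcn6 was not above background in any heart. None of the tested genes among these was called higher. Over all tested probes 13.8% were called higher and 13.7% lower, and the values of these few genes are given as a description.

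The patterns most like those of the called receptors were sought among 12969 probes of other genes by the Pearson correlation of log2 values over the 6 hearts. For Npr2 these were Nptn (r = 0.996), LOC100048858 (r = 0.993) and Rpl34 (r = 0.991), of which only LOC100048858 was differentially expressed, at 1.06. For Npr3 they were Glt8d2 (r = 0.996), Pik3cb (r = 0.995) and 2410018G20Rik (r = 0.994), each differentially expressed, at 1.14, 1.26 and 0.47. The 6 hearts fall into 2 groups and share their normalization, and the coefficients are given as a description.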

How the data were processed

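Total RNA of 3 hSRY-ON and 3 hSRY-OFF hearts was labelled with biotin and hybridized to 1 Illumina BeadChip each. The authors deposited, per probe and array, the mean bead intensity, without normalization, and the detection p-value against the negative-control beads. The summarising software is not given in the sources used here. The methods name TCC, without settings.

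Intensities were corrected and quantile normalized with neqc (offset 16, negative controls inferred from the detection p-values) in limma 3.58.1 under R 4.3.3 before a moderated linear fit (lmFit, eBayes) on the group alone. Each gene is given by the tested probe with the highest mean. A bound ("at least") sets each dim array at its lowest detected signal or the probe's own, whichever was higher. A probe at 50% or more of the array's highest intensity was taken as near the top. The steps were tested on simulated data. Alternatives were no background correction, scaling to the median of detected probes, no normalization between arrays, a larger offset (50), a mean trimmed by 30% at each end in the manner of TCC, no filter, detection on all 6 arrays, a trended robust prior, the replicate number as a block, and each heart left out. Figures were drawn with matplotlib 3.10.9.

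The genes and lists were chosen with earlier results of these data known. All 7 genes and the called members of each list could be named with values. The neighbours of Nppa and Nppb were added after the values of the 7 genes had been seen, and the further probes of a gene and the genes named without a call were named after their values were seen. Some genes are not reported here.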

Additional observations from a re-analysis of the deposited data

How the results depend on the processing

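Of the 86 values of the 6 tested genes under the alternatives, 80 kept the direction and the side of the threshold. Without normalization between arrays 1897 probes were differentially expressed in place of 3567, of which 38.5% were higher against 50.1%, with 1 of the 7 genes and 16 pathway probes called. The median of all tested probes was then -0.12, and the value of Npr3 was 0.78, or 0.90 relative to that median. Scaling to the median of detected probes made 65.7% of the called probes higher. When single hearts were left out, called probes ranged from 2206 (without hSRY-OFF replicate 1) to 3669, being 2255 without hSRY-ON replicate 1, that of the 7 genes from 1 to 2, and that of pathway probes from 15 to 27. Npr3 ranged from 0.76 to 1.10, Nppb from 0.25 to 0.91, Nppb being called at 0.91 only, and Npr1 from -0.11 to 0.19. Npr1 could be tested under 11 of 15 alternatives. With the replicate number as a block 2842 probes were called, and the calls of the 6 genes did not change. The deviations of hearts of the same number had correlations of -0.02, 0.04 and -0.07 over the tested probes. Those of hearts of unlike number ran from -0.06 to 0.09. Whether hearts of the same number shared a litter or batch was not tested, and 3 hearts in a group could not settle it. The causes were not tested. Signal over background limits Npr1 and Nppc, and the top of the scale limits Nppa.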
